A study of Mus musculus with 18 samples.

Results

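A set of 9 genes of the p53 pathway and the Cdkn2 locus was examined: Trp53, its regulator Mdm2, the p53 target genes Cdkn1a, Ccng1, Sesn2 and Bbc3, and the INK4 family genes Cdkn2a, Cdkn2b and Cdkn2c. They were taken by name from count tables that list 24062 genes, and all 9 genes have an entry in every table. Of these 9 genes, 7 passed the filter on low counts, as did 12140 of the 24062 genes, and Cdkn2a and Cdkn2b did not.

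The libraries came from NIH3T3, an immortalised mouse embryonic fibroblast line. Per the labels' protocols, unmodified cells (WT line) and a derived line that carries mouse TRIM21 fused to the red fluorescent protein mCherry (TRIM21 line) were electroporated with PBS, with bovine serum albumin (BSA) or with an antibody (IgG), and RNA was taken 16 h later. TRIM21 is a cytosolic E3 ligase and antibody receptor that recognises the Fc region. The 6 groups of line and treatment held 3 libraries each, numbered 10, 11 and 14 in the labels. Every group was electroporated, so no library shows unpulsed cells, and the promoter that drives the fusion and whether the line is a single clone are not given in the sources used here.

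The protein p53 is a transcription factor that is kept low by Mdm2, a ubiquitin ligase whose gene p53 itself switches on. When DNA damage or an oncogene frees p53, it switches on genes that stop the cell cycle (Cdkn1a, which encodes p21) or start cell death (Bbc3, which encodes Puma). The Cdkn2a locus makes 2 proteins in different reading frames: p16Ink4a, which blocks Cdk4 and Cdk6, and p19Arf, which binds Mdm2 and so protects p53. NIH3T3 cells are known to lack this locus while keeping p53, which is why detection is given here beside change.

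The start of Cdkn1a is shown because it holds the core letters of a p53 response element close to the gene whose product most often reports p53 activity. The window is chr17:29090908-29090967 on the plus strand, from the RefSeq promoter table for GRCm38.p6, and the capitals mark the motif searched, CATG, then 6 bases of any kind, then CATG, which reads alike on both strands. It begins 48 bases before the upstream start of Cdkn1a and 2838 bases before the downstream start.
Cdkn1a upstream start: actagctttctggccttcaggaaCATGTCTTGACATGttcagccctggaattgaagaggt
These letters occurred in 234 of 32851 promoter windows of 300 bases (0.712%), in 1 of the 14 windows of the 9 genes and in 0 of the 31 windows held for 23 of the 32 further p53 targets listed; the remaining targets were not searched. A match is a description of letters and not a bound site.

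Whether reads of these genes can be told from those of other genes was checked on the GENCODE transcripts of GRCm38, since a count of 0 can arise where they cannot. No stretch of 50 bases in the annotated transcripts of Cdkn2a (1120 stretches), Cdkn2b (1341) or Cdkn2c (2636) occurs in the transcripts of another gene. The same was true of 96.1% of the stretches of Trp53, which shares 154 with its pseudogene Trp53-ps, of 98.7% for Mdm2 and of 91.5% for Cdkn1a.

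Gene counts summed to 20314542 to 29766433 per library in the TRIM21 line (n = 9) and 19509017 to 26521824 in the WT line (n = 9). Trim21 stood at 984 to 1188 counts per 1e6 gene counts (CPM) in the TRIM21 libraries and at 6.54 to 9.73 CPM in the WT libraries, as the labels give. All 10 fibroblast markers checked, among them Col1a1, Vim and Thy1, had 3 or more counts in every library, and their summed level was 19322 to 32629 CPM in the TRIM21 line and 28347 to 38046 CPM in the WT line; their part in the line differences was not tested. Markers of other cell types were low: the epithelial markers summed to at most 0.610 CPM, the leukocyte markers to 4.76 to 8.65 CPM (nearly all of it Cd68, with Cd3e at 0) and the endothelial markers to 0.335 to 2.45 CPM. Nothing in the labels says that the 3 libraries of a group came from separate cultures, so p-values measure only the spread between these libraries, which may be technical.

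Cdkn2a and Cdkn2b had 0 counts in all 18 libraries. With 3 counts as the limit that a count of 0 allows, this places each gene below 0.101 to 0.154 CPM in a single library and below 0.00726 CPM over the pooled 18 libraries. These limits cover counting error only. Cdkn2c, which encodes the relative p18Ink4c and lies elsewhere on chromosome 4, had 1402 to 2439 counts in every library, so of the 3 INK4 genes 2 were undetected and 1 was expressed in both lines and after every treatment. Cdkn2d, the remaining member of that family, had 225 to 528 counts.

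Of all 24062 genes listed, 6830 (28.4%) were at 0 in all libraries. Among them were Rpl26, Ndufs5 and Eif3j1, which nearly all cells use, so a listed 0 does not by itself show that a transcript is absent. The share of their 50-base stretches found in no other gene was 77.3%, 78.3% and 49.1% (1155, 707 and 2839 stretches), and for Cdkn2a and Cdkn2b it was 100%. Rpl26, Ndufs5 and Eif3j1 were at 0 despite such stretches, so this check cannot show that a listed 0 means an absent transcript. The cause of the 0 listed for these 3 genes was not tested. The p53 targets Pmaip1 (Noxa) and Gdf15 were also at 0 in every library with 100% of their stretches found in no other gene. The counts alone cannot tell a deleted gene from a silent one.

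The genes around the locus gave more detail. Within 1 Mb on each side of Cdkn2a, at 89274471 to 89294653 on chromosome 4 of GRCm38, 70 genes are annotated, of which 39 are in the tables, Cdkn2b among them, and 21 of these had 0 counts in every library. Mtap, which encodes an enzyme of the methionine salvage pathway and is the nearest gene with reads, lies 93.4 kb from Cdkn2a. It had 5880 to 9467 counts per library and a level of 331 ± 38.4 CPM (SD, n = 18). Farther on the same side, Klhl9, an adaptor of a ubiquitin ligase, had 5437 to 8903 counts and Focad 1213 to 1892. The entry listed as Mir31 had 3 to 15 counts, and these 4 genes were the only ones of the 39 with 3 or more counts in every library.

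On the other side of Cdkn2a the first annotated gene with reads was Dmrta1, a transcription factor of the DM domain family. It had 0 counts in 17 libraries and 2 counts in the WT library after BSA numbered 14. In the 498 kb from the end of Mtap to the start of Dmrta1, Cdkn2a and Cdkn2b were the only genes of the tables. The counts therefore cannot show how far a stretch without reads extends. The type I interferon genes, all on the same side as Mtap, reached at most 9 counts, in Ifne. None of the 3 neighbours that could be tested passed between the lines: the log2 fold change (TRIM21 line minus WT line) was 0.07 for Mtap (adjusted p = 0.556, by the quasi-likelihood test of edgeR, Benjamini-Hochberg adjusted), -0.08 for Klhl9 and -0.02 for Focad. Elavl2, which encodes an RNA-binding protein and lies on chromosome 4 beyond this window, had 237 to 482 counts and fell by 0.34 on the log2 scale (SE 0.082, adjusted p = 0.0162 by edgeR).

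**Figure D1:**
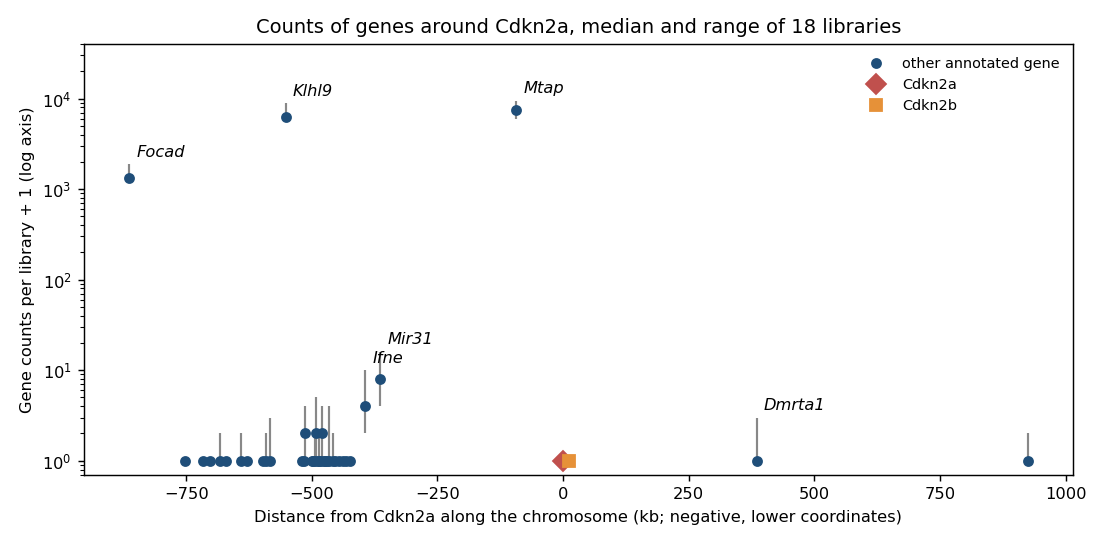
Counts per library plus 1 (log axis) of the 39 annotated genes with a table entry, against their distance in kb from Cdkn2a, shown as a diamond. Points are medians and lines the range over 18 libraries; Mtap, 93.4 kb away, has 5880 to 9467 counts, and Cdkn2a and Cdkn2b have 0.

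Levels of the genes were compared per length, as CPM per kilobase of exon. Ccng1, which encodes cyclin G1, was highest at 83.4 ± 12.4 (SD, n = 18), followed by Trp53 at 46.4 ± 6.03, Cdkn1a at 34.6 ± 3.02 and Cdkn2c at 30.7 ± 3.91. Mdm2 stood at 15.8 ± 0.894, Sesn2 at 11.8 ± 1.89 and Bbc3 at 2.01 ± 0.563 CPM per kilobase. Ranges over the 18 libraries were separate only between Cdkn2c and Mdm2, between Sesn2 and Bbc3, and between Bbc3 and the undetected Cdkn2a and Cdkn2b. The other neighbours in this order overlapped.

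None of the 7 tested genes passed an adjusted p of 0.05 between the lines (edgeR quasi-likelihood test, averaged over the 3 treatments). The background was 6.18% of all 12140 tested genes, 169 higher and 581 lower in the TRIM21 line. At this background, a count of 0 among 7 genes says little. None of the 7 reached an unadjusted p under 0.05 either, where 2600 of the 12140 genes did. This was narrow, since Ccng1 had an unadjusted p of 0.0529 by edgeR. Under DESeq2 size factors, no filter, a replicate block, the DESeq2 Wald test or a GC content offset, 1 of the 7 was under 0.05. With block and offset together it was 2, and with 10 or more counts in every library or limma-voom it was 0. Of the 7 log2 fold changes 6 were above 0, with a median of 0.10 beside 0.01 for all tested genes, and they ran from -0.07 to 0.19. This count rested on single libraries. Without the TRIM21 library after PBS numbered 11 it was 4 of 7, and without the TRIM21 library after IgG numbered 11 it was 5. The share of all tested genes above 0 was not taken. With all libraries, the 95% intervals together spanned -0.26 to 0.52 on the log2 scale, and the highest upper bound was a 1.43-fold difference, for Bbc3. Fewer cells expressing a gene and less of its RNA per cell cannot be told apart in bulk RNA.

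Trp53 had overlapping levels in the 2 lines. The lowest, median and highest libraries of the TRIM21 line were at 169, 186 and 263 CPM and those of the WT line at 147, 188 and 212 CPM. The groups overlapped, and only the TRIM21 library after PBS numbered 11 lay above the WT range. The log2 fold change was 0.07 (SE 0.084, adjusted p = 0.645 by edgeR), and without that library it was -0.0047.

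Mdm2, the negative regulator and p53 target, was the steadiest of the 7 genes. It was at 73.5, 80.8 and 89.9 CPM in the TRIM21 line (lowest, median, highest) and at 74.3, 78.8 and 90.1 CPM in the WT line. These ranges nearly coincide. The log2 fold change was 0.02 (SE 0.049, adjusted p = 0.848 by edgeR), with a 95% interval from -0.08 to 0.12. Within groups, the SD of its log2 CPM was 0.0827, lower than in all but 4.15% of tested genes, and lower than in all but 7.10% of the 2043 genes of similar level.

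Among the p53 targets, Ccng1 came nearest to a difference between the lines. Its lowest, median and highest values were 250, 313 and 387 CPM in the TRIM21 line and 210, 273 and 328 CPM in the WT line. The means were 313 ± 45.8 and 274 ± 33.0 CPM (SD, n = 9 each), and only 3 TRIM21 libraries lay above the WT range. The log2 fold change was 0.19 (SE 0.093, adjusted p = 0.241 by edgeR), and an exact two-sided permutation test over every assignment of the libraries to 2 lines of 9 gave p = 0.0595. That shuffle sets treatment and replicate number aside and treats the libraries as independent, so its p adds little support. Ccng1 was the only one of the 7 genes to pass in any other fit, with an adjusted p of 0.0489 by edgeR with a GC content offset and a replicate block together.

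Cdkn1a, the cell cycle inhibitor p21, was at 116, 127 and 138 CPM in the TRIM21 line and at 103, 118 and 134 CPM in the WT line (lowest, median, highest). The groups overlapped, with 3 TRIM21 libraries above the WT range. Its log2 fold change was 0.10 (SE 0.064, adjusted p = 0.369 by edgeR). Sesn2, a stress-induced inhibitor of mTORC1 signalling, was at 31.8, 41.4 and 53.1 CPM in the TRIM21 line and at 28.8, 40.0 and 47.0 CPM in the WT line. These ranges also overlapped, and the log2 fold change was 0.16 (SE 0.105, adjusted p = 0.407 by edgeR).

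Bbc3 had the fewest reads of the expressed genes, 51 to 168 per library. It was at 2.70, 4.55 and 6.83 CPM in the TRIM21 line and at 2.59, 3.96 and 6.01 CPM in the WT line. The lines overlapped almost fully, and the log2 fold change was 0.16 (SE 0.170, adjusted p = 0.617 by edgeR). Cdkn2c was at 61.0, 80.7 and 96.6 CPM in the TRIM21 line and at 70.1, 86.1 and 93.6 CPM in the WT line. Its log2 fold change was -0.07 (SE 0.092, adjusted p = 0.718 by edgeR), and the WT range lay inside the TRIM21 range.

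**Figure D2:**
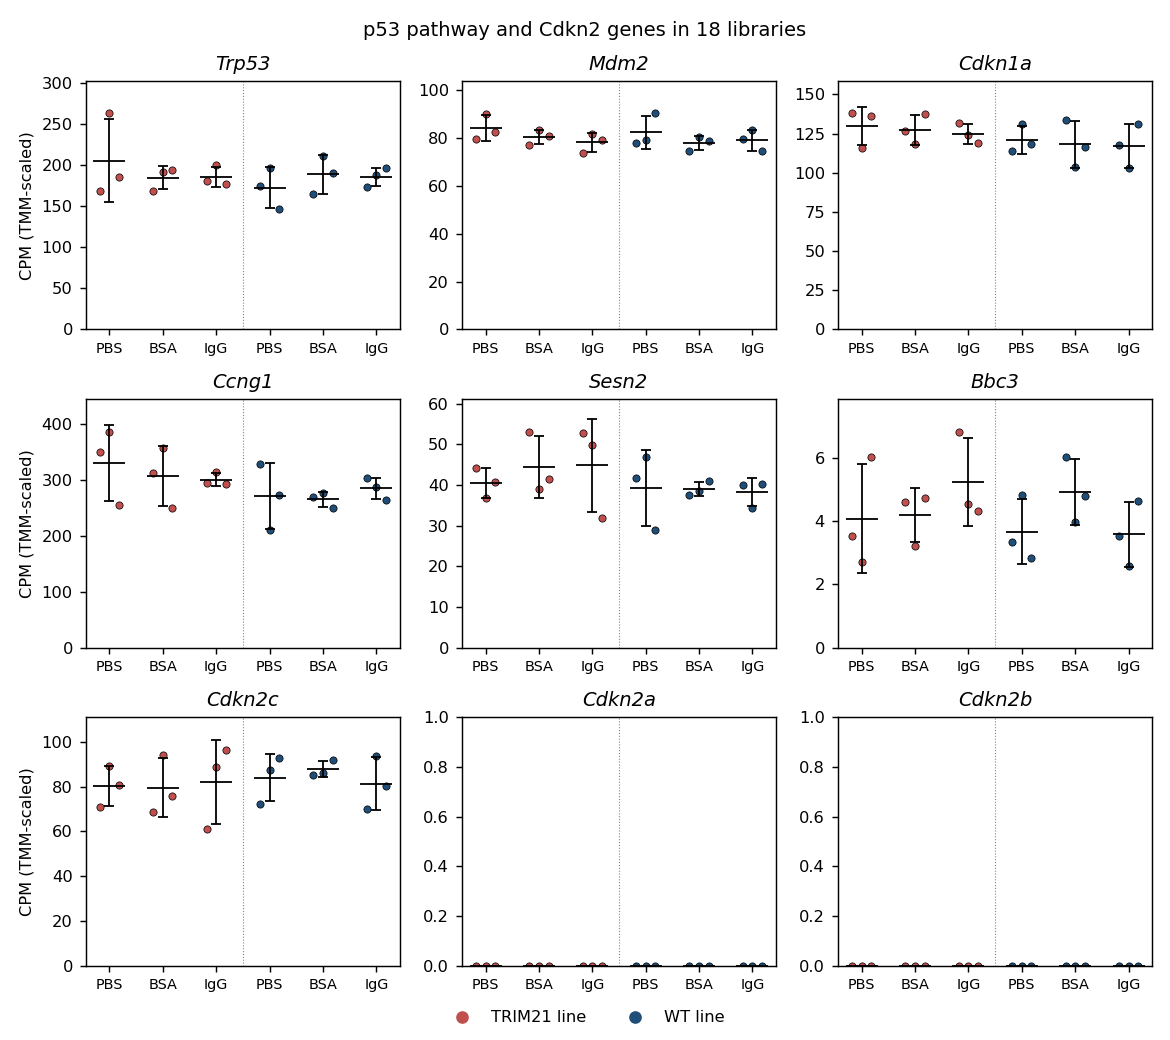
TMM-scaled CPM of the 9 genes in 18 libraries by line and treatment; points are libraries, bars the mean and SD of 3, and each axis starts at 0. Trp53 reaches 263 CPM in a single TRIM21 library after PBS, Mdm2 stays between 73.5 and 90.1 CPM, and Cdkn2a and Cdkn2b are at 0 in every library.

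The line difference was also taken within each treatment. After PBS 0 of the 7 genes passed, beside a background of 1.71% of tested genes. After BSA 0 of 7 passed (background 0.848%) and after IgG 0 of 7 passed (background 0.774%). At such backgrounds these counts of 0 say little. The smallest adjusted p of these genes was 0.326 after PBS (Ccng1), 0.686 after BSA (Ccng1) and 0.694 after IgG (Bbc3), all by edgeR. Trp53 had a log2 fold change of 0.25 after PBS (SE 0.15), and of 0.02 without the library numbered 11.

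Antibody delivery was then compared with PBS and with BSA, which share their IgG libraries, and BSA with PBS. In each line, averaged over the lines, and as the difference between the lines, 0 of the 7 genes passed in each of these 12 comparisons, and the background was 0% of 12140 tested genes in each. None of the 7 had an unadjusted p under 0.05 in any of them by edgeR, where 45 to 790 of all tested genes did. For IgG minus PBS averaged over both lines the log2 fold changes ran from -0.08 (Mdm2) to 0.15 (Bbc3), and for IgG minus BSA from -0.07 (Bbc3) to 0.04 (Ccng1). Cdkn1a, a common readout of p53 activity, had a log2 fold change of -0.06 (95% interval -0.29 to 0.17) for IgG minus PBS in the TRIM21 line and of -0.05 (-0.28 to 0.19) in the WT line.

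Bbc3 gave the widest treatment values. In the TRIM21 line it was at 4.61, 3.22 and 4.74 CPM after BSA and at 6.83, 4.55 and 4.31 CPM after IgG (libraries 10, 11 and 14). In the WT line it was at 6.01, 3.96 and 4.78 CPM after BSA and at 3.53, 2.59 and 4.63 CPM after IgG. The groups overlapped in both lines, with higher means after IgG in the TRIM21 line and lower ones in the WT line. The log2 fold changes were 0.32 (SE 0.29) and -0.46 (SE 0.30), and their difference of 0.77 (SE 0.42) had an adjusted p of 0.843 by edgeR. With an offset for GC content that difference was 0.19. The offset was fitted on deviations from the mean of all libraries, so it can also take out group differences that go with GC content.

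Trp53 after PBS was at 169, 263 and 186 CPM in the TRIM21 line (libraries 10, 11 and 14) and at 176, 197 and 147 CPM in the WT line. After IgG it was at 181, 200 and 178 CPM in the TRIM21 line and at 174, 188 and 196 CPM in the WT line. All 4 groups overlapped. The log2 fold change for IgG minus PBS was -0.15 (SE 0.15) in the TRIM21 line and 0.10 (SE 0.15) in the WT line, and the adjusted p of the difference was 0.972 by edgeR. Without the TRIM21 library after PBS numbered 11, the value in the TRIM21 line was 0.089.

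**Figure D3:**
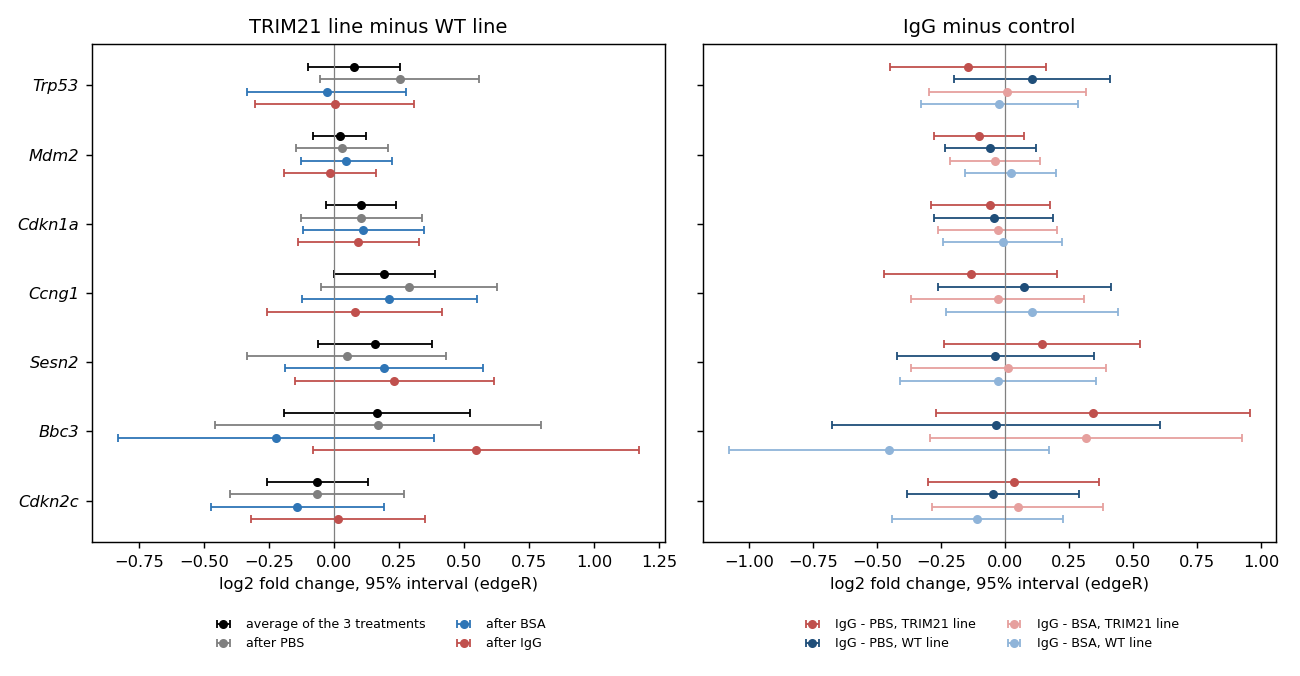
Log2 fold changes of the 7 tested genes with 95% intervals from edgeR: left, TRIM21 line minus WT line, averaged and within each treatment; right, IgG minus PBS and IgG minus BSA in each line. Every interval includes 0, and Bbc3 has the widest intervals.

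Other genes of the pathway were read from lists chosen with earlier results of these data known. Of 32 further p53 target genes 29 were tested and 3 passed between the lines (edgeR, adjusted p under 0.05), 2 higher and 1 lower in the TRIM21 line, beside a background of 6.18% of all tested genes. Their median log2 fold change was 0.05. The most abundant of them by CPM, Plk2, Ak1 and Zmat3, had log2 fold changes of 0.18, 0.11 and 0.11, of which only that of Plk2 passed.

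Eda2r, a receptor of the tumour necrosis factor receptor family for the ectodysplasin EDA-A2, rose the most. It was at 23.1, 28.9 and 35.4 CPM in the TRIM21 line and at 16.97, 19.4 and 26.2 CPM in the WT line (lowest, median, highest). The ranges overlapped, and 5 of 9 TRIM21 libraries lay above all WT libraries. The log2 fold change was 0.51 (SE 0.10, adjusted p = 0.00392 by edgeR).

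Plk2, a polo-like kinase, was at 239, 261 and 292 CPM in the TRIM21 line and at 217, 230 and 239 CPM in the WT line. The 2 lines did not overlap, though the nearest libraries were at 239.3 CPM (TRIM21 line) and 238.9 CPM (WT line). The log2 fold change was small, 0.18 (SE 0.049, adjusted p = 0.0382 by edgeR). The exact two-sided permutation p of 4.11e-05 is the smallest possible when all 18 libraries are assigned freely to the lines. That shuffle sets treatment and replicate number aside and treats the libraries as independent, so this p overstates the support. Apaf1, the scaffold of the apoptosome, fell by 0.24 on the log2 scale (adjusted p = 0.0488 by edgeR), from 47.4 ± 5.74 CPM in the WT line to 40.1 ± 3.84 CPM in the TRIM21 line (SD, n = 9 each). The ranges overlapped, with 4 of 9 TRIM21 libraries below all WT libraries. The calls of Plk2 and Apaf1 were kept in 6 of 18 fits that each left out a library, and those of Eda2r and Sirt1 in 18 of 18. Apaf1 also missed the threshold under 4 of the 8 other settings, with adjusted p-values of 0.0520 to 0.0530 by edgeR or limma-voom, and Plk2 under 1, with 0.0752 by edgeR with no filter.

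Of 18 regulators and relatives of p53 17 were tested and 1 passed, Sirt1, beside the background of 6.18%, so the count is near that of all tested genes. Sirt1, a deacetylase that acts on p53 among other proteins, was at 16.179, 17.004 and 21.035 CPM in the TRIM21 line and at 19.0, 25.1 and 31.1 CPM in the WT line (lowest, median, highest). The ranges overlapped, and 7 of 9 TRIM21 libraries lay below all WT libraries. It fell by 0.50 on the log2 scale (SE 0.088, adjusted p = 0.00142 by edgeR). The most abundant regulators, Npm1, Huwe1 and Usp7, had log2 fold changes of 0.12, 0.15 and 0.07, none of which passed. The kinases Atm, Atr, Chek1 and Chek2 had values of 0.10 to 0.17 that did not pass. Of the 17 values of this list 12 were above 0 and the rest below, with a median of 0.06.

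Both kinases that p16Ink4a blocks, Cdk4 and Cdk6, were detected, Cdk6 at only 79 to 240 counts per library and a mean of 6.46 CPM. Of 14 genes of the Ink4-Rb axis 13 were tested and 0 passed between the lines, with a median log2 fold change of 0.10. With a background of 6.18%, a list of this size says little by a count of 0. The most abundant were Cdk4 and the D cyclins Ccnd2 and Ccnd1. They had means of 555, 285 and 244 CPM over the 18 libraries and log2 fold changes of -0.08, 0.11 and 0.36 (adjusted p = 0.439, 0.441 and 0.0917 by edgeR). Cdkn1c, the p57 inhibitor, had at most 1 count. Of 11 known regulators of the Cdkn2 locus 10 were tested and 0 passed (background 6.18%), with a median of -0.03, and the Polycomb genes Bmi1, Suz12 and Ezh2 were the most abundant of them, at 138, 126 and 85.0 CPM. In none of the other 15 comparisons did a gene of these 4 lists pass.

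**Figure D4:**
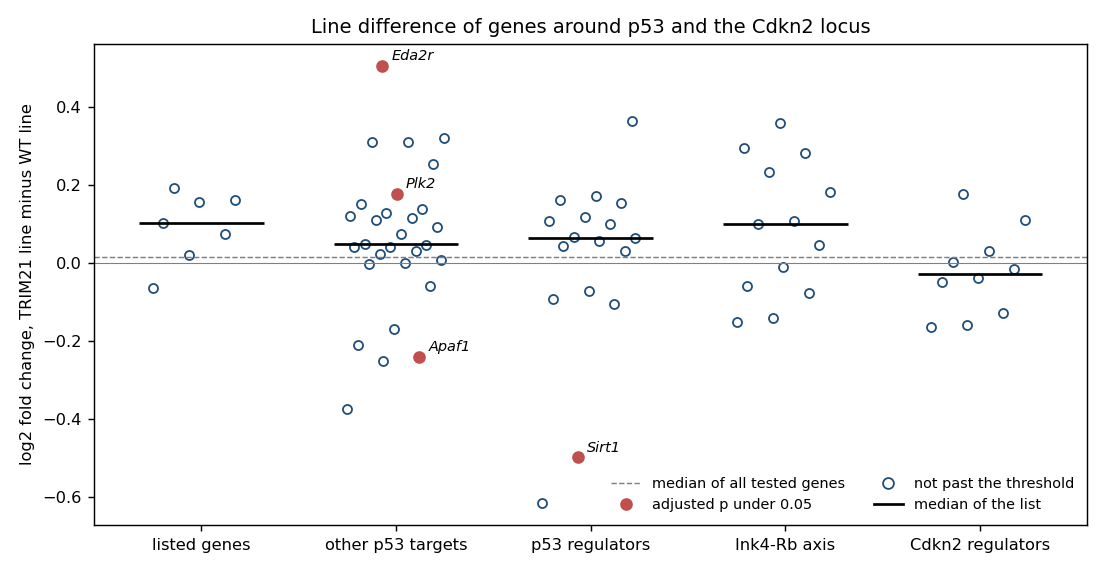
Log2 fold change, TRIM21 line minus WT line, of each tested gene in 5 lists; filled points have an adjusted p under 0.05 by edgeR, black bars are list medians, and the dashed line is the median of all tested genes, 0.01. Eda2r (0.51) and Sirt1 (-0.50) are the farthest of the filled points.

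The genes were next compared by how they varied among libraries of the same group. Deviations of log2 CPM from the group mean were correlated over the 18 libraries, which are descriptions without a test, since the libraries share scaling and base composition. Deviations also went with the replicate number: all 6 libraries numbered 10 lay below their group mean for Cdkn2c and 5 of 6 for Mdm2, while 5 of 6 numbered 11 lay above for each, and for Trp53 all 6 numbered 11 lay above. The 3 numbers held 67.3% of the variance of these deviations for Cdkn2c, 52.1% for Trp53 and 42.3% for Mdm2. The 18 libraries therefore cannot be taken as independent points. For the other 4 genes the share was 22.0% to 30.0%. Some variance falls between 3 numbers without any effect of number, and whether these shares exceed it was not tested. Cdkn1a and Bbc3 moved together (Pearson r 0.83), and Mdm2 moved against both (-0.67 with Cdkn1a and -0.74 with Bbc3). Ccng1 also moved against Bbc3 (-0.71). Mdm2 and Cdkn2c moved together (0.70). With the mean of each number removed, an alternative added after the data were seen, the r was 0.77 for Cdkn1a and Bbc3, -0.61 for Mdm2 and Cdkn1a, -0.75 for Mdm2 and Bbc3 and -0.84 for Ccng1 and Bbc3, but 0.39 for Mdm2 and Cdkn2c. The 4 p53 target genes did not all vary in 1 direction. Trp53 RNA had values of -0.38 (Cdkn1a) to 0.30 (Cdkn2c) with the others before the number means were removed. With those means removed, the r of Trp53 was -0.48 with Cdkn2c, -0.30 with Mdm2 and 0.01 with Cdkn1a. It was then 0.05 with Ccng1, 0.17 with Bbc3 and 0.35 with Sesn2.

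Transcript GC content moved with part of this pattern. It was 65.2% in Bbc3, 58.7% in Sesn2, 58.0% in Cdkn2c, 54.4% in Cdkn1a, 53.3% in Trp53, 46.2% in Mdm2 and 40.8% in Ccng1. A GC tilt was taken for each library as the log2 difference in deviation between genes of the top and the bottom quartile of GC content, and its r with the gene's own deviation was 0.80 for Bbc3, 0.62 for Sesn2, 0.58 for Cdkn1a, 0.29 for Trp53, -0.58 for Mdm2 and -0.65 for Ccng1. Cdkn2c went against this order, with a GC content close to that of Sesn2 and an r of -0.30. With an offset for GC content, an alternative added after the data were seen, the r of Cdkn1a and Bbc3 was 0.72, while that of Bbc3 and Sesn2 went from 0.54 to -0.02 and that of Mdm2 and Bbc3 from -0.74 to -0.44. Trp53 had an r of -0.67 with both Cdkn1a and Bbc3 under that offset. Leaving out each library in turn, without the offset, kept the r of Cdkn1a and Bbc3 between 0.79 and 0.89.

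**Figure D5:**
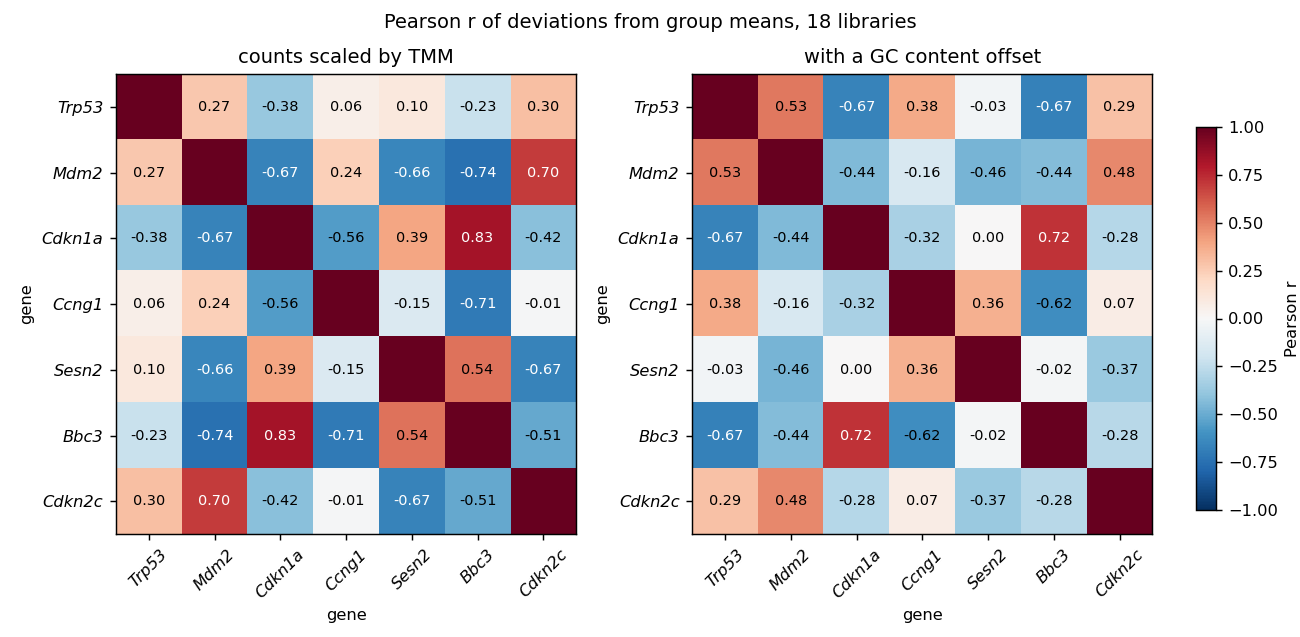
Pearson r between deviations of log2 CPM from group means for each pair of the 7 expressed genes over 18 libraries, as scaled by TMM (left) and with a GC content offset (right). Cdkn1a and Bbc3 have the highest value in both panels, 0.83 and 0.72, and Bbc3 with Sesn2 goes from 0.54 to -0.02.

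The tested genes whose deviations were most like those of each main gene were named by Pearson r over the 18 libraries. For Trp53 they were Ncs1 (0.96), Troap (0.96) and Slc35a4 (0.95), and for Ccng1 they were Rttn (0.94), Mkln1 (0.94) and Mre11a (0.93). For Cdkn1a they were Kctd2 (0.93), Trpt1 (0.90) and Mroh6 (0.86), and for Mdm2 they were Ikzf5 (0.92), Fam122b (0.90) and Fubp1 (0.90). No other member of the 9 was among these nearest genes. For Trp53 638 tested genes had an r over 0.7, for Ccng1 671, for Mdm2 309 and for Cdkn1a 242, so a high r was not rare.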

How the data were processed

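Gene expression was measured by strand-specific, polyA-enriched RNA sequencing in 18 libraries, in 6 groups of 3 taken from the labels. The deposited values are raw counts of reads per gene symbol, 1 table per library, made by the authors. The submitters' processing notes name bcl2fastq 2.19.1.403, FastQC 0.11.5, STAR 2.5.1b, HTSeq 0.6.0, DESeq2 1.6.3 and the build mm10, without their roles, and the annotation used for counting is not given in the sources used here. Reads counted to no gene, 13.2% to 18.9% of gene and no-feature reads together, were left out. Reads with several alignments have a summary line of their own in the deposited tables and are in no gene's count, so a gene with a near-identical copy is undercounted.

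Counts were fitted with edgeR 4.0.16 in R 4.3.3: filterByExpr defaults (counts of at least 10, total of at least 15), TMM factors (0.977 to 1.03), a quasi-likelihood fit of 6 group means to all 18 libraries, and Benjamini-Hochberg adjustment over all 12140 tested genes within each of 16 comparisons, with a threshold of 0.05. Values are counts per 1e6 gene counts (CPM), and log2 CPM used a prior count of 2. Gene positions, exon lengths and transcripts came from GENCODE for GRCm38, and promoter windows from RefSeq. The procedure was run on simulated counts without replicate number or GC effects, with line differences larger than the averaged ones of the listed genes. That run does not bear on those effects or on differences this small.

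The genes and lists were chosen with earlier results of these data known. The text names the 9 genes, every gene of the lists past the threshold and the 3 most abundant genes of each list. It also names the 3 genes most like Trp53, Mdm2, Cdkn1a and Ccng1. Of the Cdkn2a neighbours it names those with 3 or more counts in every library, and Dmrta1 and Ifne. Further genes, among them Atm, Atr, Chek1, Chek2, Cdk6, Cdkn2d, Cdkn1c, Pmaip1 and Gdf15, were named outside this rule. Alternatives were DESeq2 1.42.0 size factors, no filter, 10 or more counts in every library, a replicate block, the DESeq2 Wald test, limma-voom (limma 3.58.1), fits to the compared groups alone, and omission of each library. The GC content offset, alone and with the block, and the removal of replicate number means from deviations were added after the data were seen. The offset used a lowess curve on transcript GC content, known for 95.4% of tested genes. The curve was fitted to each library's deviations from the mean of all libraries, and not from group means.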

Additional observations from a re-analysis of the deposited data

Results flagged for a closer look

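For Trp53, a difference between the lines in the response to IgG was picked out because every IgG library of the TRIM21 line lay below the mean of its PBS libraries (by -0.19 to -0.014 in log2 CPM) while every IgG library of the WT line lay above (by 0.017 to 0.19). The test of the difference itself gave -0.25 (SE 0.205, adjusted p = 0.972 by the edgeR quasi-likelihood test). Without the TRIM21 library after PBS numbered 11, which had the highest Trp53 level of all libraries, the difference was -0.02.

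Bbc3 met the same criterion for IgG against BSA: the IgG libraries lay 0.059 to 0.71 above the BSA mean in the TRIM21 line and -0.88 to -0.064 from it in the WT line. The difference was 0.77 (SE 0.415, adjusted p = 0.843 by edgeR). With the GC content offset, which can also take out group differences that go with GC content, it was 0.19. Bbc3 had 51 to 168 counts per library and the highest GC content of the 7 genes.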

How the results depend on the processing

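None of the 7 tested genes passed in any comparison under the 7 planned settings, nor in the 18 fits that left out a library, nor with the GC content offset alone; Ccng1 alone (1 gene) passed between the lines with the GC content offset and replicate block together, a setting added after the data were seen. Of 3017 log2 fold changes of these genes under the alternatives 250 changed sign, and 13 of these moved by more than their standard error. Those were Bbc3 after PBS without the TRIM21 library after PBS numbered 14 (-0.25, in a range up to 0.42), Trp53 without the TRIM21 library after PBS numbered 11 (0.089 for IgG minus PBS and 0.077 for BSA minus PBS in the TRIM21 line, 0.099 and 0.11 over both lines, in ranges down to -0.28, -0.29, -0.085 and -0.078), Ccng1 for BSA minus PBS in the WT line without its PBS library numbered 10 (0.14, in a range down to -0.18), and with the GC content offset, alone or with the block, Cdkn2c after IgG (-0.15 and -0.15), Cdkn2c (-0.12 and -0.11) and Sesn2 (-0.26 and -0.26) in the difference of IgG minus BSA between the lines, and Cdkn2c for BSA minus PBS in the WT line (-0.10, offset alone). None of these values passed the threshold.

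The number of genes past the threshold in the averaged line difference was 750, and 1462 with the replicate block, 1141 with the GC content offset, 2316 with both, and 517 to 1268 without single libraries, the highest without the TRIM21 library after PBS numbered 14. After PBS it was 208, and 132 with 10 or more counts in every library, 451 by the DESeq2 Wald test, 44 with only the groups compared, 847 with the block, 344 with the offset, 1942 with both and 104 to 1018 without single libraries (122 without the TRIM21 library after PBS numbered 11, 1018 without number 14 and 104 without the WT library after PBS numbered 14). After BSA it was 103, and 53 with 10 or more counts, 164 by the Wald test, 187 with the block, 313 with block and offset and 66 to 138 without single libraries. After IgG it was 94, and 57 with 10 or more counts, 166 by the Wald test, 179 with only the groups compared, 173 with the block, 242 with block and offset and 69 to 148 without single libraries. For IgG minus PBS over both lines it was 0, and 5 by the Wald test, 1 with the block and 1 with block and offset. The cause was not tested.

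The replicate numbers were not taken to pair the libraries. The rule asked for an r over 0.1 in all 45 same-numbered pairs, and 32 had it. Deviations of same-numbered libraries had a mean r of 0.22 (-0.32 to 0.58), and different numbers had a mean of -0.11. Of the 18 libraries 16 were closest to their own number. Libraries therefore shared variation by number. The main fit, which gave the SEs and p-values where no other setting is named, has no term for it. With the replicate block, the genes past the threshold in the averaged line difference went from 750 to 1462. With all libraries Plk2 and Apaf1 passed; of the fits without a library, Plk2 passed without the libraries 11 or 14 of the TRIM21 line after PBS, 14 after BSA, 14 after IgG, or WT 14 after PBS or 11 after BSA, and Apaf1 without TRIM21 10 or 14 after PBS, WT 10 or 11 after PBS, 10 after BSA or 10 after IgG. Bbc3 rested on 51 to 168 counts per library, and for Cdkn2a and Cdkn2b the limit was 3 counts.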
